A study of Homo sapiens with 5 samples.

Results

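A set of 10 genes of the unfolded protein response and the integrated stress response was followed in lung adenocarcinoma cells that had become resistant to gefitinib, an inhibitor of the EGFR tyrosine kinase. The genes were ATF4, ATF3, DDIT3, XBP1, TRIB3, CHAC1, SESN2, DDIT4, HSPA5 and HERPUD1. They were taken by symbol, and each had 1 entry under its symbol in the deposited expression table. They are 10 of the 37181 entries of the table. HCC827 is a human lung adenocarcinoma line that carries an activating deletion in EGFR, and all libraries stem from this line. Whether HCC827/GR kept the deletion was not tested here. HCC827/GR was raised from HCC827 by prolonged culture in stepwise higher doses of gefitinib, so the contrast is between 1 parental line and 1 resistant line derived from it. Whether gefitinib was in the medium when RNA was taken is not given in the sources used here. RNA sequencing gave 3 libraries of HCC827/GR (replicates 1, 2 and 3) and 2 of HCC827 (replicates 2 and 3). Values are FPKM, fragments per kilobase of transcript scaled to the size of the library, which allow levels of different genes to be compared per length.

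The integrated stress response runs through kinases that phosphorylate eIF2alpha: this slows general translation and favours translation of ATF4, a transcription factor that turns on genes for amino acid supply, redox balance and, when stress lasts, cell death. The unfolded protein response starts at the endoplasmic reticulum (ER), where the sensors PERK, IRE1 and ATF6 respond to misfolded protein. PERK is itself an eIF2alpha kinase, IRE1 splices XBP1 mRNA into the form that encodes an active transcription factor, and ATF6 and spliced XBP1 raise ER chaperones and the machinery that removes misfolded protein. Gene-level FPKM shows the total mRNA of a gene. It does not show how much ATF4 is translated, nor which share of XBP1 mRNA is spliced.

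The ER branch was first mapped in the promoters of these genes, and the sequences below show where its response elements lie. Letters were searched on both strands in the 250 bases before each RefSeq transcript start (build GRCh38.p14), in 35116 windows of all genes. The ER stress response element (ERSE, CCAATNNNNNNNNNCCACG) was in 26 windows, 0.074% of all. Those of XBP1 and HSPA5 were among them. Its variant ERSE-II (ATTGGNCCACG) was in 18 windows, 0.0513%, and HERPUD1 had one. The C/EBP-ATF response element bound by ATF4 (CARE, TGATGNAA) was in 1104 windows, 3.14%, among them those of ATF3, CHAC1 and HERPUD1. Capitals mark the matched letters in each stretch, which is written from 5′ to 3′ along the gene.
XBP1, ERSE, chr22:28800600-28800699, minus strand: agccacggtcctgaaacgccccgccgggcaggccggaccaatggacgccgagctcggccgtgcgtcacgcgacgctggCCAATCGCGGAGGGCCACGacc
HSPA5, ERSE, chr9:125241374-125241473, minus strand: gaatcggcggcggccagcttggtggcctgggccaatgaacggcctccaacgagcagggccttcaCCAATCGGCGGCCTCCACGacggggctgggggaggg
HERPUD1, CARE on the opposite strand and then ERSE-II, chr16:56931942-56932041, plus strand: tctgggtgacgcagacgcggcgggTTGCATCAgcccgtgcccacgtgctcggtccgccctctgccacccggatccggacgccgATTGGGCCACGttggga
CHAC1, CARE on the opposite strand, chr15:40953251-40953280, plus strand: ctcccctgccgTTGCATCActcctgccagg
ATF3, CARE, chr1:212565204-212565233, plus strand: aaaaggtcaggaTGATGGAAggctgtcata

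Counted from the transcript start, with the last base before it as -1, the ERSE lay at -52 to -34 in XBP1 and at -66 to -48 in HSPA5, and the ERSE-II of HERPUD1 lay at -117 to -107. In the 16 windows of the 10 genes, neither the cAMP response element (CRE, TGACGTCA, in 1.65% of all windows) nor the unfolded protein response element (UPRE, TGACGTGG, in 0.612%) was found, and 5 genes held none of the 5 motifs. Absence of a match says only that these letters are not in this window, and a match is not a measured binding site. As for expression, 14 genes with an ERSE before their start were measured above the filter on low values. Of them, 0 were called changed between the lines (limma, adjusted p under 0.05), where 11.0% of all entries tested were called. An unadjusted p under 0.05 was reached by 5 of the 14 and by 27.2% of all entries. Ballgown's model called 0 of the 14, and 11 of all 16189 entries. Genes with an ERSE-II held 1 call, lower, in 14 tested, and genes with a CARE held 14 calls higher and 10 lower in 205 tested. Besides XBP1 and HSPA5, the genes with an ERSE included the ER chaperone and folding genes CALR, CANX, HSP90B1, PDIA6, CRELD2 and ERO1B.

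**Figure D1:**
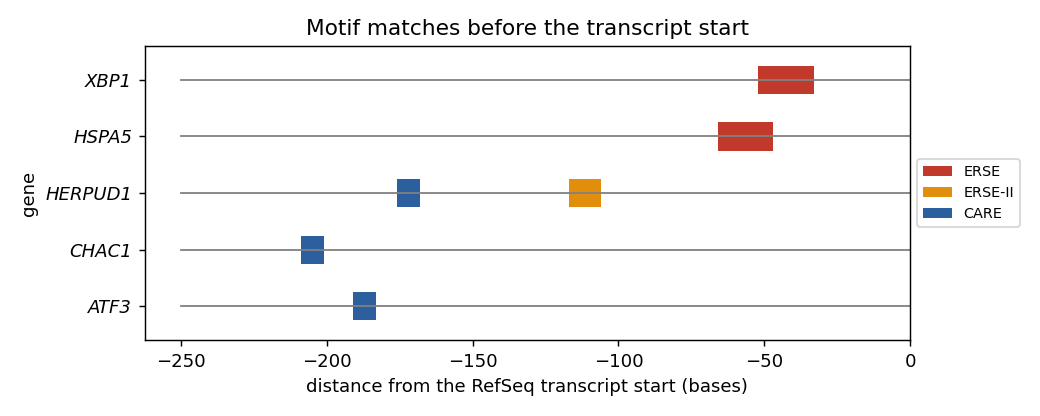
Positions of the ERSE, ERSE-II and CARE matches in the promoters of XBP1, HSPA5, HERPUD1, CHAC1 and ATF3, in bases before the RefSeq transcript start; each bar spans 1 match and the grey line the 250 bases searched. The ER stress elements of XBP1 and HSPA5 lie closest to the start, from -66 on, while the CARE matches lie farther out.

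Expression levels spread widely over the 10 genes. HSPA5 was the highest, with a mean of 136.3 FPKM over the 5 libraries, followed by ATF4 at 45.4, DDIT4 at 21.1, XBP1 at 13.4, TRIB3 at 12.7, HERPUD1 at 6.13, DDIT3 at 5.66, SESN2 at 2.30, ATF3 at 0.897 and CHAC1 at 0.267 FPKM. Not all of this order holds in single libraries. DDIT4 exceeded XBP1 in 2 of 5 libraries, XBP1 exceeded TRIB3 in 2, HERPUD1 exceeded DDIT3 in 3 and ATF3 exceeded CHAC1 in 4, so these neighbours are not ordered in every library. Each of the other neighbours was in the same order in all 5.

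**Figure D2:**
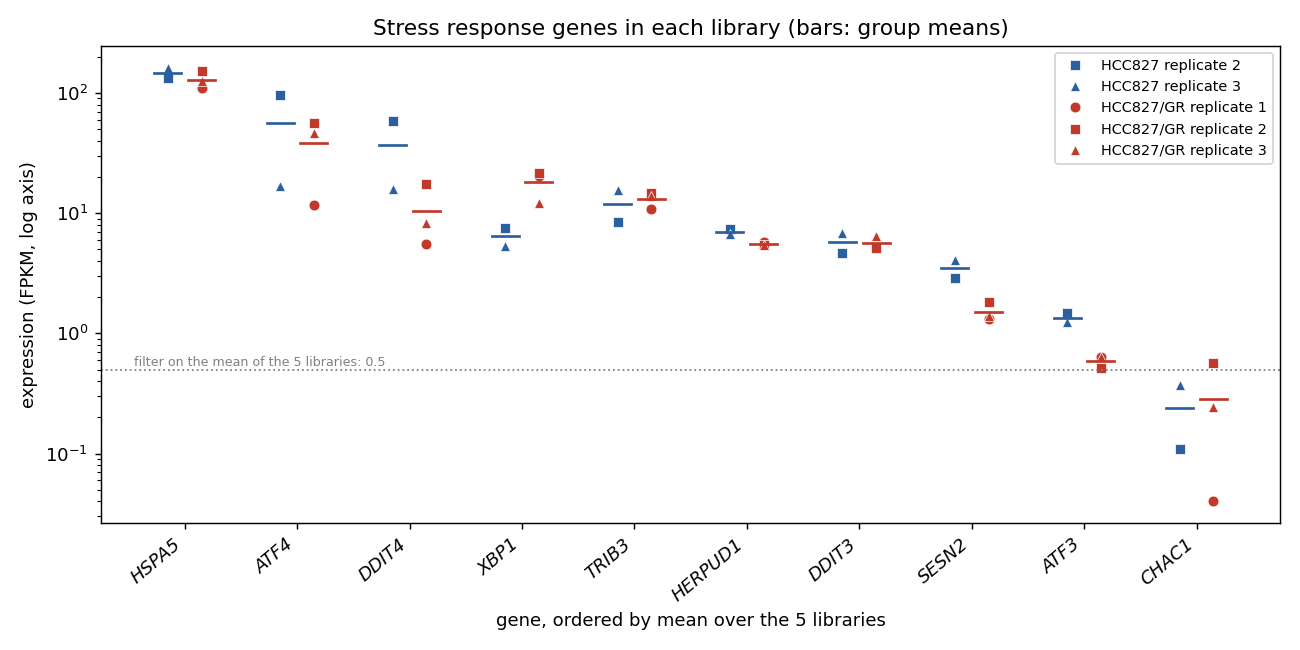
FPKM of the 10 genes on a log axis, 1 point per library, with HCC827 in blue, HCC827/GR in red and a bar at each group mean. HCC827/GR lies wholly above HCC827 for XBP1 (12.2 to 21.5 against 5.34 to 7.50 FPKM) and wholly below it for SESN2, ATF3 and HERPUD1, and the points of ATF4, DDIT4 and CHAC1 are scattered within both groups.

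SESN2 was the 1 gene of the 10 that passed the test, and it was lower in the resistant cells. XBP1 was higher and ATF3 and HERPUD1 were lower in every HCC827/GR library than in any HCC827 library, but these 3 did not reach an adjusted p under 0.05. ATF4, DDIT3, TRIB3, DDIT4 and HSPA5 overlapped between the lines. CHAC1 was under the mean of 0.5 FPKM required for testing. Of the 9 genes tested with limma on log2(FPKM + 1), 0 were called higher, 1 lower and 8 were not called. Unadjusted p was under 0.05 in 4 of the 9 (XBP1, SESN2, ATF3 and HERPUD1), against 27.2% of all entries tested. Ballgown's model called 0 of the 9, but only 11 of all 16189 entries, so this 0 says little about the members. Over all 16189 entries tested, 11.0% were called in either direction and 5.71% were called lower. Fold changes below are on the log2(FPKM + 1) scale, HCC827/GR minus HCC827, and this scale understates the change of low genes. Of the 9 log2 fold changes, 7 were below 0 and 2 above, with a median of -0.29, where the median over all entries was 0.001429. The groups did not overlap in 4 of the 9 genes, 3 lower and 1 higher in HCC827/GR, while they did not overlap in 46.3% of all entries tested. The other rule asked for a fold change of at least 2 with an unadjusted p under 0.05 from limma. By it, XBP1 was the 1 member called higher and 0 were called lower, against 2.96% of all entries called higher and 3.97% called lower. With the fold taken as the ratio of mean FPKM, a choice made after the values were seen, XBP1 (2.82) was called higher and SESN2 (0.434) and ATF3 (0.440) lower, against 5.68% of all entries called higher and 7.42% lower. With 3 libraries against 2, an exact two-sided permutation test of a single gene cannot give a p below 0.1, so the spread shared across all genes carries these tests. Nothing states that the libraries come from separate cultures: the p-values measure the spread between these libraries, which may be technical. In bulk RNA, fewer cells with a transcript and less of it per cell cannot be told apart.

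**Figure D3:**
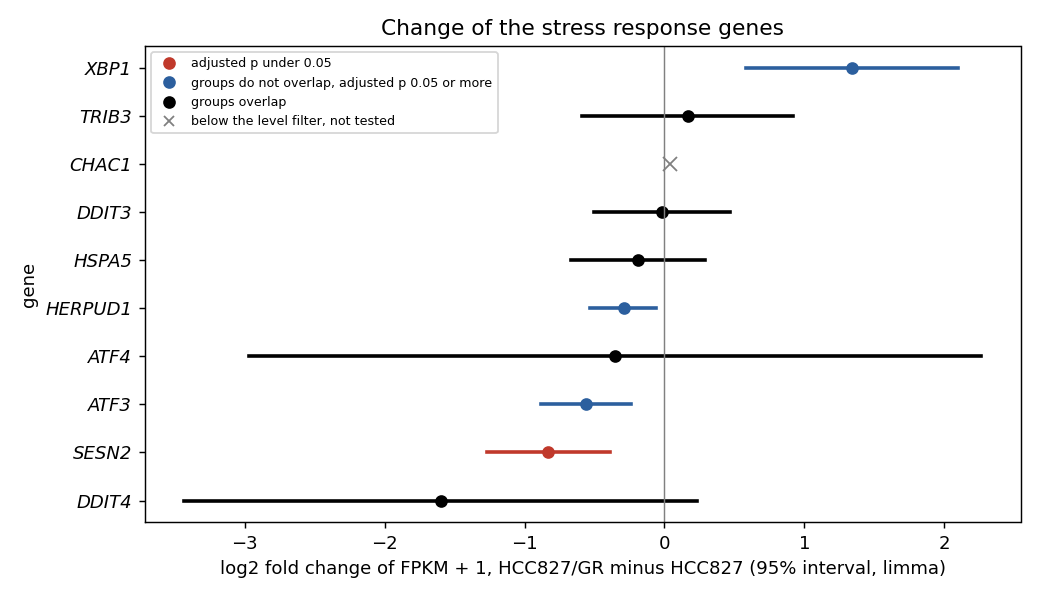
Log2 fold change of FPKM + 1 (HCC827/GR minus HCC827) of the 10 genes with the 95% interval from limma; red marks SESN2 with an adjusted p under 0.05, blue the genes whose groups do not overlap without reaching it, black the genes whose groups overlap, and the cross CHAC1, which was not tested. The intervals of ATF4 (-2.97 to 2.26) and DDIT4 (-3.43 to 0.23) are the widest.

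Among the transcription factors, XBP1 (chr22:28794555-28800597, minus strand), the factor activated by IRE1, had the largest positive difference. Its FPKM was 20.5, 21.5 and 12.2 in HCC827/GR replicates 1, 2 and 3 and 7.50 and 5.34 in HCC827 replicates 2 and 3. The lowest HCC827/GR library, replicate 3, still lay above both HCC827 libraries. The mean was 18.1 ± 5.11 FPKM (SD, n = 3) against 6.42 ± 1.53 (SD, n = 2), a ratio of 2.82. This gave a log2 fold change of 1.34 (SE 0.291, 95% interval 0.58 to 2.10), with an adjusted p of 0.0548 from limma. Without HCC827/GR replicate 3 the log2 fold change was 1.59 and the adjusted p 0.0403. With each of the other libraries left out it ranged from 1.13 to 1.55 and did not pass.

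ATF4 (chr22:39519695-39522685, plus strand), the central factor of the integrated stress response, varied within each line far more than between them. Its FPKM was 11.7, 56.5 and 46.2 in HCC827/GR replicates 1, 2 and 3 and 95.9 and 16.8 in HCC827 replicates 2 and 3. The highest library was 4.82 times the lowest in HCC827/GR and 5.69 times in HCC827, so that each line had 1 low library, HCC827/GR replicate 1 and HCC827 replicate 3. The standard deviation of ATF4 within the lines was larger than that of 99.05% of all entries tested. The mean was 38.1 ± 23.4 FPKM (SD, n = 3) in HCC827/GR and 56.4 ± 55.9 (SD, n = 2) in HCC827, with a log2 fold change of -0.35 (95% interval -2.97 to 2.26, adjusted p = 0.864, limma). Its direction turned without HCC827/GR replicate 1 (0.33) and without HCC827 replicate 2 (0.87), so no direction is given for ATF4. Pseudogenes with the ATF4 name (ATF4P1 to ATF4P4) were each at most 0.431 FPKM in every library.

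ATF3 (chr1:212565334-212620777, plus strand), a factor induced by ATF4 and by many other stresses, was scarce in both lines. It stood at 0.634, 0.511 and 0.637 FPKM in HCC827/GR replicates 1, 2 and 3 and 1.47 and 1.23 in HCC827 replicates 2 and 3. All 3 HCC827/GR libraries lay below both HCC827 libraries. The log2 fold change was -0.56 (SE 0.124, 95% interval -0.88 to -0.24, adjusted p = 0.0576, limma), and the log2 ratio of the mean FPKM, which the added 1 does not dampen, was -1.19. Without the trend of spread with level in limma, the adjusted p was 0.0430.

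DDIT3 (chr12:57516588-57521737, minus strand) encodes CHOP, the factor tied to cell death in lasting ER stress. Its FPKM was 5.18, 5.17 and 6.45 in HCC827/GR replicates 1, 2 and 3 and 4.62 and 6.85 in HCC827 replicates 2 and 3. Both the lowest and the highest of the 5 libraries were HCC827. Its log2 fold change was -0.02 with a 95% interval of -0.50 to 0.47 (adjusted p = 0.970, limma). Its sign turned without HCC827/GR replicate 1 (0.03), HCC827/GR replicate 2 (0.03) or HCC827 replicate 3 (0.23). DDIT3 overlaps MARS (chr12:57475445-57517569), which encodes a tRNA synthetase on the opposite strand. At its other end DDIT3 overlaps MBD6 (chr12:57520710-57530148), also on the opposite strand, and it overlaps AC022506.1 and MIR616. Strand is not given for these libraries, so reads of DDIT3 and these genes could not be told apart where they overlap. The DDIT3 entry held 7 transcripts, of which 6 belong to DDIT3 in the annotation used for positions. The part of the remaining transcript in the DDIT3 value was not tested. MARS was at 14.8, 15.9 and 17.5 FPKM in HCC827/GR and 28.0 and 22.2 FPKM in HCC827 (log2 fold change -0.61, adjusted p = 0.0636, limma), and its part in the DDIT3 value was not tested.

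Of the effectors that act downstream of ATF4 and CHOP, SESN2 (chr1:28259527-28282491, plus strand) was the 1 gene called. Sestrin 2, its product, senses leucine and restrains mTORC1. SESN2 stood at 1.32, 1.83 and 1.40 FPKM in HCC827/GR replicates 1, 2 and 3 and 2.89 and 4.09 in HCC827 replicates 2 and 3. Every HCC827/GR library was below both HCC827 libraries. The mean was 1.51 ± 0.275 FPKM (SD, n = 3) against 3.49 ± 0.848 (SD, n = 2), and HCC827 was 2.30 times HCC827/GR. The log2 fold change was -0.83 (SE 0.170, 95% interval -1.27 to -0.39), with an adjusted p of 0.0476 from limma. The call sits at the threshold: it passed in 3 of 14 alternatives, with adjusted p from 0.0454 to 0.316. Leaving out any 1 library ended the call, with adjusted p from 0.0833 to 0.156, while the log2 fold change stayed between -1.02 and -0.63.

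DDIT4 (chr10:72273920-72276036, plus strand) encodes REDD1, a second inhibitor of mTORC1, which also responds to hypoxia and glucocorticoids. It had the largest absolute log2 fold change of the 10 genes and was not called. Its FPKM was 5.57, 17.5 and 8.33 in HCC827/GR replicates 1, 2 and 3 and 58.3 and 15.8 in HCC827 replicates 2 and 3. HCC827 replicate 2 stood far above the rest, and HCC827 replicate 3 lay below HCC827/GR replicate 2. The log2 fold change was -1.60 (SE 0.704, 95% interval -3.43 to 0.23, adjusted p = 0.233, limma), and its spread within the lines was above that of 97.43% of entries. Without HCC827 replicate 2 it was -0.69, and without HCC827 replicate 3 it was -2.51. An antisense gene, DDIT4-AS1, lies within it and cannot be separated from it without strand.

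The 5 tested protein-coding genes whose profile over the 5 libraries was most like that of DDIT4, among 10845 compared, were TIMM8A, RTEL1, MPP7, CDC42EP2 and TNFSF15. Their root mean square difference from DDIT4, on log2(FPKM + 1) centred on each gene's mean, ran from 0.341 to 0.434. All 5 shared the high value of HCC827 replicate 2, for example TIMM8A at 8.11 FPKM there and between 0.619 and 1.89 FPKM elsewhere. This follows from their choice by likeness to DDIT4 and is no separate result.

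TRIB3 and CHAC1, which are widely read as markers of ATF4 and CHOP activity, did not separate the lines. TRIB3 (chr20:362835-397559, plus strand), a pseudokinase that binds AKT and ATF4, stood at 10.7, 14.7 and 13.9 FPKM in HCC827/GR replicates 1, 2 and 3 and 8.37 and 15.7 in HCC827 replicates 2 and 3. Both HCC827 libraries lay outside the range of HCC827/GR, one below and one above it. Its log2 fold change was 0.17 with a 95% interval of -0.59 to 0.92 (adjusted p = 0.768, limma), and -0.25 without HCC827 replicate 2. CHAC1 (chr15:40952962-40956519, plus strand), an enzyme that degrades glutathione, had 0.0405, 0.568 and 0.246 FPKM in HCC827/GR and 0.110 and 0.370 FPKM in HCC827. It was below 1 FPKM in every library, and the depth behind such values is unknown, so no difference could be read for it.

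HSPA5 and HERPUD1 stand for the ER itself. HSPA5 (chr9:125234853-125241330, minus strand) encodes BiP, the main ER chaperone, whose rise is a usual sign of ER stress. Its FPKM was 109.3, 152.0 and 126.2 in HCC827/GR replicates 1, 2 and 3 and 131.8 and 162.4 in HCC827 replicates 2 and 3. The ranges of the lines overlapped between 131.8 and 152.0 FPKM. This gave a log2 fold change of -0.19 with a 95% interval of -0.67 to 0.29 (adjusted p = 0.573, limma), so that a rise beyond 0.29 lies outside this interval.

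HERPUD1 (chr16:56932048-56944863, plus strand) encodes Herp, a membrane protein of the degradation machinery. It stood at 5.73, 5.47 and 5.40 FPKM in HCC827/GR replicates 1, 2 and 3 and 7.37 and 6.67 in HCC827 replicates 2 and 3. All 3 HCC827/GR libraries lay below HCC827, by a small margin and with little spread (5.54 ± 0.173, SD, n = 3, against 7.02 ± 0.493, SD, n = 2). The log2 fold change was -0.29 (SE 0.0913, 95% interval -0.53 to -0.06, adjusted p = 0.123, limma). It stayed between -0.36 and -0.23 with any 1 library left out. HERPUD1 overlaps AC012181.1 and AC012181.2, and their part in its value was not tested.

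**Figure D4:**
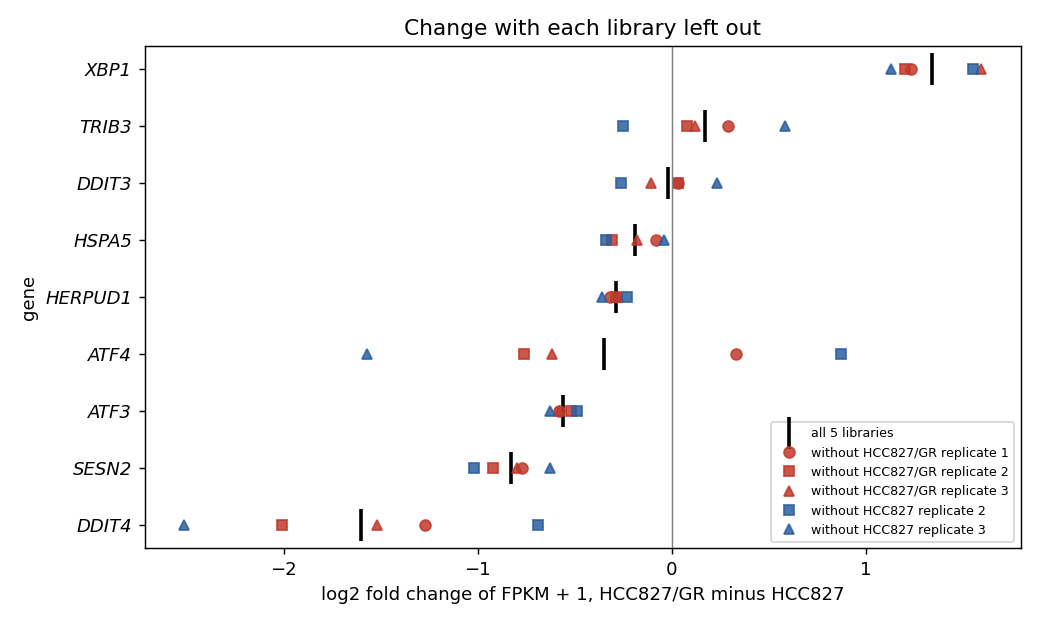
Log2 fold change of FPKM + 1 of the 9 tested genes with all 5 libraries (black bar) and with each library left out (symbols). XBP1, HSPA5, HERPUD1, ATF3, SESN2 and DDIT4 keep their side of 0, while ATF4 runs from -1.57 to 0.87 and DDIT3 and TRIB3 also cross 0.

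A few libraries recur at the extremes. HCC827/GR replicate 1 was the lowest of the 5 libraries in 5 genes, ATF4, DDIT4, CHAC1, SESN2 and HSPA5. HCC827 replicate 2 was the highest in ATF4, ATF3, DDIT4 and HERPUD1 but the lowest in DDIT3 and TRIB3. DDIT3 and TRIB3 were both highest in HCC827 replicate 3. Between 8896 and 9803 entries of the table were at 0 in a library, and the scaling factors between libraries lay between 0.997 and 1.03.

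The rest of the pathway and some sets outside it were read from 11 lists of genes, with 126 genes tested. Some listed genes had no entry under their symbol and were not tested. These were ASNS, PYCR1, FGF21, MBTPS2, DNAJB11, TXNDC5, VCP, HSPA1A, HSPE1 and SLC2A1. The lists of cytosolic heat shock, p53 targets, hypoxia targets and paralogs lie outside the pathway and are part of the counts. Of the 126 genes, 6 were called higher, 12 lower and 108 were not called. That is 14.3% called against 11.0% of all entries, with a median log2 fold change of -0.02. The lower calls of RRM2B, CDKN1A and EGLN3 come from the p53 and hypoxia lists. The lists differed in which genes moved. Without HCC827/GR replicate 1, 0 of the 126 were called higher and 2 lower. Unadjusted p was under 0.05 in 48 of the 126 genes with all 5 libraries, and in 27.2% of all entries tested.

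**Figure D5:**
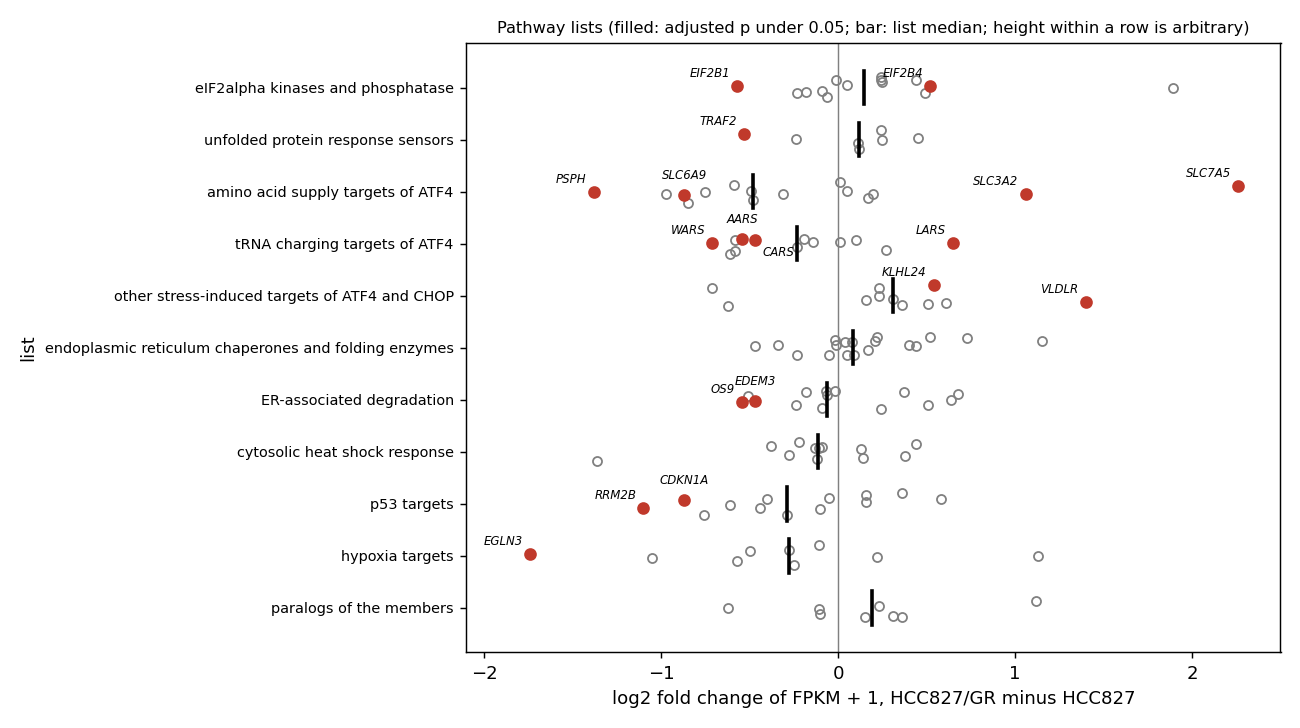
Log2 fold change of FPKM + 1 (HCC827/GR minus HCC827) of the genes of 11 lists, 1 circle per gene; filled circles passed an adjusted p under 0.05 and are named, and the black bar is the list median. The amino acid list holds both the strongest rise, SLC7A5 at 2.26, and a median below 0 (-0.48), and no circle of the ER chaperones is filled.

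The signalling layer held 3 called genes. Among 14 genes for eIF2alpha itself, its kinases, its phosphatase, the kinase inhibitor DNAJC3 and the eIF2B subunits, 1 was called higher, 1 lower and 12 were not called (median 0.14). EIF2B4, a subunit of the exchange factor that phosphorylated eIF2alpha blocks, rose by 0.52 (7.41 to 7.51 FPKM in HCC827/GR, 4.86 and 4.93 in HCC827, adjusted p = 0.0255, limma), and EIF2B1, another subunit, fell by 0.57 (12.7 to 15.0 against 19.4 and 22.0 FPKM, adjusted p = 0.0464). The most abundant kinase gene, EIF2AK1, which encodes the heme-regulated kinase, was not called, with a log2 fold change of 0.24. EIF2AK3, which encodes PERK, was at 8.61 to 10.9 FPKM against 7.72 and 7.97 (log2 fold change 0.25, adjusted p = 0.286). Of 7 tested sensors and their partners, TRAF2, the adaptor that binds IRE1, fell by 0.53 (2.36 to 2.60 against 4.0 and 4.08 FPKM, adjusted p = 0.0299) and 6 were not called (median 0.12). MBTPS1, a protease that cleaves ATF6 and the most abundant of them, had a log2 fold change of 0.24. ERN1, which encodes IRE1, had 1.02 to 1.13 FPKM in HCC827/GR and 0.900 and 0.946 FPKM in HCC827 (adjusted p = 0.566), and ATF6 had 5.42 to 5.98 against 4.93 and 5.42 (adjusted p = 0.476). EIF2AK3, ERN1 and ATF6 were picked for their role after their values were seen. The calls of EIF2B4, EIF2B1 and TRAF2 were lost with any 1 library left out.

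Among the targets of ATF4 that supply amino acids, the carrier genes SLC7A5 and SLC3A2 rose, and the enzyme gene PSPH and the carrier gene SLC6A9 fell. Of 15 tested, 2 were called higher, 2 lower and 11 were not called, with a median of -0.48. ASNS and PYCR1, also in this list, had no entry under their symbol and are not among the 15. Below the calls the list leaned downward: unadjusted p was under 0.05 in 9 of the 15, 7 lower and 2 higher (limma). Over all entries tested, 27.2% had an unadjusted p under 0.05 in limma. By Ballgown's model 4 of the 15 were under it, 3 lower and 1 higher. That model put 2891 of all 16189 entries under it, 1383 lower and 1508 higher. SLC7A5, which encodes the light chain of the LAT1 leucine transporter, was at 754.1, 749.3 and 688.5 FPKM in HCC827/GR and 240.7 and 94.8 in HCC827. Its log2 fold change was 2.26 (SE 0.406, adjusted p = 0.0355, limma), 2.93 without HCC827 replicate 2 and 1.60 without HCC827 replicate 3. SLC3A2, its heavy chain, was at 107.8, 112.7 and 118.1 against 49.0 and 58.8 FPKM, a log2 fold change of 1.06 (SE 0.118, adjusted p = 0.0122). Both chains of the same transporter were thus higher in all 3 HCC827/GR libraries.

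PSPH, the last enzyme of serine synthesis, was at 12.9, 12.2 and 13.4 FPKM in HCC827/GR and 32.5 and 37.5 in HCC827. It fell by 1.38 on the log2 scale (SE 0.105, adjusted p = 0.00556, limma) and kept its call with any 1 library left out. PSPH lies on the same arm of chromosome 7 as EGFR (chr7:56011051-56051604 against chr7:55019021-55211628), and EGFR was at 3.52 to 7.82 FPKM in HCC827/GR and 56.4 and 70.8 in HCC827; its part in the PSPH value was not tested. SLC6A9, a glycine carrier, fell by 0.87 from a low level (0.451 to 0.626 against 1.49 and 2.25 FPKM, adjusted p = 0.0389). SLC38A2, the most abundant gene not called, had a log2 fold change of 0.20. The call of SLC7A5 was lost without any 1 HCC827/GR library (adjusted p up to 0.109), that of SLC3A2 without HCC827/GR replicate 1 or 2 or HCC827 replicate 2 (up to 0.0601), and that of SLC6A9 without any 1 library (0.0630 to 0.126).

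Genes for charging tRNA, also under ATF4, held 4 calls. Of 13 tested, 1 was called higher, 3 lower and 9 were not called (median -0.23). An unadjusted p under 0.05 was reached by 8 of the 13, 6 lower and 2 higher (limma), and by 27.2% of all entries tested. WARS, AARS and CARS, which charge tryptophan, alanine and cysteine tRNA, fell by 0.71, 0.54 and 0.47 (adjusted p = 0.0385, 0.0374 and 0.0414, limma). LARS, which charges leucine tRNA, rose by 0.65 (20.7 to 24.0 against 13.5 and 14.1 FPKM, adjusted p = 0.0260). GARS, the most abundant gene not called, had a log2 fold change of 0.27. None of these 4 calls held with any 1 library left out, the adjusted p ranging from 0.0511 to 0.155.

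Among 11 other stress-induced targets of ATF4 and CHOP, 2 were called higher, 0 lower and 9 were not called (median 0.31). VLDLR, a lipoprotein receptor gene, was at 16.1, 15.6 and 14.4 FPKM in HCC827/GR and 4.45 and 6.04 in HCC827. Its log2 fold change was 1.40 (adjusted p = 0.0109, limma), and the adjusted p was 0.0536 without HCC827/GR replicate 1. KLHL24, a ubiquitin ligase adaptor gene, rose by 0.54 (adjusted p = 0.0374) and lost its call without any 1 library (0.0913 to 0.130). EIF4EBP1, a repressor of cap-dependent translation, was the most abundant gene not called, with a log2 fold change of 0.51 (95% interval -0.46 to 1.47).

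The ER chaperones and folding enzymes held no call in 18 genes tested (limma, median 0.08), where 11.0% of all entries were called. An unadjusted p under 0.05 was reached by 5 of the 18, 3 higher and 2 lower, and by 27.2% of all entries. Ballgown's model called 0 of the 18, and 11 of all 16189 entries. CALR, the calcium-binding chaperone calreticulin, was the most abundant at 236.8 to 266.2 FPKM in HCC827/GR and 192.7 and 249.4 in HCC827 (log2 fold change 0.17, adjusted p = 0.530, limma). By the fold rule 1 of the 18 passed, ERO1B, higher in HCC827/GR. It was at 4.31, 1.88 and 2.44 against 0.648 and 0.722 FPKM (log2 fold change 1.15, adjusted p = 0.0724, limma). Over all entries 2.96% passed higher, and ERO1B was named here after its values were seen. The summed FPKM of the list was 784.3 to 900.2 in HCC827/GR and 691.5 and 842.5 in HCC827, so the lines overlapped. Of 14 tested genes of ER-associated degradation, 0 were called higher and 2 lower (median -0.07). OS9, a lectin that delivers misfolded glycoproteins, fell by 0.54 (213.4 to 238.2 against 317.5 and 333.8 FPKM, adjusted p = 0.0400) and EDEM3, a mannosidase, fell by 0.47 (6.62 to 7.50 against 9.76 and 10.2 FPKM, adjusted p = 0.0479). Neither call held with any 1 library left out.

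Lists of neighbouring responses were read beside the ER branch, since DDIT4, SESN2 and ATF3 also answer to p53, hypoxia or other stresses. The cytosolic heat shock list held 0 calls in 12 genes tested (limma, median -0.11), where 11.0% of all entries were called. An unadjusted p under 0.05 was reached by 3 of the 12, 1 higher and 2 lower, and by 27.2% of all entries. Ballgown's model called 0 of the 12, and 11 of all 16189 entries. The most abundant gene of the list, the constitutive chaperone HSPA8, had a log2 fold change of -0.11. By the fold rule 1 of the 12 passed, HSPA1B, lower in HCC827/GR (24.95, 8.23 and 18.96 against 45.6 and 39.0 FPKM, log2 fold change -1.36, adjusted p = 0.151, limma). Over all entries 3.97% passed lower, and HSPA1B was named after its values were seen. Of 13 p53 targets tested, 0 were called higher and 2 lower (median -0.29). RRM2B, a ribonucleotide reductase subunit, was at 1.08 to 1.69 FPKM in HCC827/GR and 3.73 and 4.63 in HCC827 (log2 fold change -1.10, adjusted p = 0.0215). CDKN1A, which encodes the cell cycle inhibitor p21, was at 0.461 to 0.834 against 1.87 and 2.0 FPKM (log2 fold change -0.87, adjusted p = 0.0308). Both kept their call only without HCC827/GR replicate 3, with adjusted p up to 0.115 and 0.127 without another library, and CCNG1, the most abundant gene not called, had a log2 fold change of 0.58.

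Of 9 tested hypoxia targets, EGLN3, an oxygen-sensing prolyl hydroxylase, was the 1 called. It was at 0.125, 0.266 and 0.0916 FPKM in HCC827/GR and 3.0 and 2.75 in HCC827 (log2 fold change -1.74, adjusted p = 0.00553, limma), and its call held with any 1 library left out. BNIP3, the most abundant hypoxia target not called, had a log2 fold change of 0.22. The paralogs of the 10 genes, among them TRIB1, SESN1 and HERPUD2, held 0 calls in 8 tested (limma, median 0.19), where 11.0% of all entries were called. An unadjusted p under 0.05 was reached by 0 of the 8 and by 27.2% of all entries. Ballgown's model called 0 of the 8, and 11 of all 16189 entries. The other 4 of the 12 paralogs in the table were under the filter. Among these, TRIB2 narrowly missed it, with 0.0338, 0.0531 and 0.00672 FPKM in HCC827/GR and 0.936 and 1.46 FPKM in HCC827 (log2 fold change -1.08, adjusted p = 0.0415 from limma with no filter). SESN3 had 0.0592 to 0.130 against 0.405 and 0.409 FPKM (log2 fold change -0.37, adjusted p = 0.0560 with no filter), and both lay below HCC827 in every HCC827/GR library. TRIB2 and SESN3 are named after their values were seen.

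Markers of the cells were checked against the label. The 7 epithelial carcinoma markers (EPCAM, KRT8, KRT18, KRT19, CDH1, NKX2-1 and EGFR) were present in both lines, but their summed FPKM was 446.7 to 579.2 in HCC827/GR and 1139 to 1243 in HCC827. Of the endothelial markers, PECAM1 was listed at 0 in all HCC827/GR libraries and was at 4.34 and 3.32 FPKM in HCC827, while CDH5 and VWF were at most 0.0749 FPKM. Of the leukocyte markers, PTPRC was at most 0.0228 and CD14 at most 0.267 FPKM. The epithelial level moved with the groups in the same direction as SESN2, ATF3 and HERPUD1, and its part in their differences was not tested.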

How the data were processed

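RNA sequencing of HCC827/GR (replicates 1, 2 and 3) and HCC827 (replicates 2 and 3) was read from the FPKM table deposited by the authors. The reads were trimmed by them reads with Cutadapt, checked with FastQC and mapped with Bowtie2 and TopHat2, and transcripts were assembled and quantified with StringTie and Ballgown. Per the labels, the build was hg18, while the Ensembl transcripts of the table belong to GENCODE release 29 (GRCh38), from which positions were taken. Per the labels, libraries were made with a small RNA kit, whereas the study's methods describe mRNA sequencing, and strand is not given in the sources used here. FPKM carries no read counts, so sequencing depth is unknown and no counting error is given. In the table, 1 further FPKM column matched no sample and was not used.

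The 10 genes and the lists were chosen with earlier results of these data known. Values were not rescaled. HCC827/GR was compared with HCC827 with two-sided limma tests (version 3.58.1, R 4.3.3; lmFit, then eBayes allowing a trend) of log2(FPKM + 1). Entries whose mean reached 0.5 FPKM, 16189 of 37181, were tested. p-values were adjusted by the Benjamini-Hochberg method over all entries tested, and called means an adjusted p under 0.05. The second rule took the study's threshold of 2 times or more, or 0.5 times or less, with p under 0.05. Here the p came from limma and the fold from log2(FPKM + 1), whereas the study took its p from Ballgown. Named from the lists were up to 6 called genes with the smallest p and the most abundant gene not called, of which 1 is not reported here. Genes with several entries in the table were represented by the entry with the highest mean. The fit was checked on simulated data. Alternatives were a pseudocount of 0.1, no filter, a filter at 1 FPKM, quantile normalization, median-ratio scaling, no trend, Ballgown's model, a replicate block, summed entries and leaving out each library. Promoter sequences were taken from RefSeq (GRCh38.p14), and all 10 genes had at least 1 window. The other steps and the plots ran in Python 3.11.15 (pandas 2.3.3, numpy 2.4.6, matplotlib 3.10.9, scipy 1.17.1).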

Additional observations from a re-analysis of the deposited data

How the results depend on the processing

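The number of members called lower was 1 and became 0 with no filter, quantile normalization, Ballgown's model, the replicate block, summed entries and with any library left out (0 to 0). The count was also 1 without the trend, where ATF3 took the place of SESN2. Members called higher were 0, and 0 to 1 with a library left out, XBP1 without HCC827/GR replicate 3. By the fold rule, 1 member was called higher and 0 lower, and 1 and 2 with the fold as the ratio of mean FPKM, a setting chosen after seeing the data. Over all entries, 851 were called higher and 924 lower, which became 504 higher with no filter, 2 and 9 with Ballgown's model, and 181 to 450 higher and 248 to 434 lower with a library left out. In the lists, 6 higher and 12 lower became 3 lower with no filter, 0 and 1 with Ballgown's model, and 0 to 4 higher and 2 to 5 lower with a library left out. With fewer libraries fewer degrees of freedom remain. The replicate numbers did not pair the libraries: deviations of same-numbered libraries from their group means correlated at 0.0328 (replicates 2) and 0.0147 (replicates 3). With the replicate block, the counts were 0 higher and 0 lower over all entries and 0 and 0 in the lists (limma, with 3545 entries and 45 list genes at an unadjusted p under 0.05), and calls lost in this way are not read as weaker effects.

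The direction of ATF4 turned with the replicate block (0.33) and in the range with a library left out (-1.57 to 0.87). That of DDIT3 did likewise (0.03, and -0.26 to 0.23). That of TRIB3 turned with Ballgown's model (-0.06) and a library left out (-0.25 to 0.58). The block gave the same log2 fold changes as leaving out HCC827/GR replicate 1, since that replicate has no HCC827 library to pair with. These are therefore not separate alternatives for the direction of ATF4 or DDIT3. With a library left out, BNIP3 ran from -0.11 to 0.39, CALR from -0.01 to 0.36, HSPA8 from -0.28 to 0.06 and SLC38A2 from -0.04 to 0.43. The causes were not tested. Among the 38 genes followed through these alternatives, no other turned in direction. Genes such as MARS, EIF2AK3, ERN1, ATF6, TRIB2, SESN3 and CXCL8 were not among the 38. Of 528 values of the 38 genes, 375 were unchanged, 136 lost the call, 2 gained it, 13 turned direction and 2 moved beyond the spread. Only genes called in the main fit could lose a call. The 528 also cover genes that were never called and some values without an adjusted p. Thus 375 of 528 is not the share of calls that held. Depth could not be weighed, as the table holds no counts.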

Other observations

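The annotation of the table assigns genes to branches of the response, and these were read after the results above were known. Of 48 tested entries assigned to the IRE1 branch, 3 were called higher and 3 lower (median log2 fold change 0.04). Of 10 in the PERK branch, 1 was called higher and 0 lower (median -0.10), and of 7 in the ATF6 branch 0 and 0 (limma, median -0.02). Over all entries tested, 11.0% were called. The branches hold members of the 10 genes, 2 in the IRE1, 5 in the PERK and 3 in the ATF6 branch, so these counts partly repeat values given above. The 1 PERK branch entry called was CXCL8, the gene of the chemokine interleukin 8.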
